A study of Drosophila melanogaster with 16 samples.

Results

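The antioxidant enzyme genes described here are 5 fly genes chosen by symbol, Prx6c, MsrA, Cat, Sod1 and Sod2. They were chosen with earlier results of these data known, so their counts and p-values are descriptive. A probe set is the group of array probes that measures 1 transcript, and the gene's probe set with the highest mean was taken. The array annotation gave a probe set of their own to 4 of the 5 genes. Sod1, the cytosolic copper and zinc superoxide dismutase, is not analysed here. All 4 measured genes passed the filter on low values (log2 4 in at least 3 arrays), as did 8110 of 17104 genes in all. In these totals a probe set with no symbol or with several symbols was counted as 1 gene. Of the 8110 kept, 7104 had 1 symbol, and shares of all genes below are over the 8110.

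Heads of male Drosophila melanogaster of the Berlin background strain, 2 to 4 days old, were measured on 16 arrays. The ethanol group (7 arrays) had breathed for 30 min ethanol vapor, 60% of saturation after dilution in humidified air. The air group (7 arrays) had breathed humidified air alone for 30 min at the same flow, both at 25 °C, and the unexposed group (2 arrays, A and B) had no treatment. Exposed flies recovered with food before freezing, for 0, 30, 60 or 90 min or for 120, 180 or 210 min, with 1 array for each exposure and time. Each exposed array pools 3 groups of 200 flies, so the spread between pools of 1 time was not measured, and the p-values for ethanol against air rest on the spread of the 7 matched differences.

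Superoxide, a by-product of respiration, is turned into hydrogen peroxide by superoxide dismutases, of which Sod2 is the manganese enzyme of mitochondria. Hydrogen peroxide is then removed by catalase, the enzyme made by Cat, and by peroxiredoxins, small thiol peroxidases to which Prx6c belongs. MsrA repairs protein damage: its enzyme reduces methionine that has been oxidized to the sulfoxide. The fly MsrA gene is also known as Eip71CD, an ecdysone-induced gene. Flies oxidize ethanol mainly through alcohol dehydrogenase, and catalase can also oxidize ethanol when peroxide is present.

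Prx6c was about 2-fold higher after ethanol than after air and was the member called over all times, 1 of 4, where 0.691% of all 8110 genes were called (0.419% higher and 0.271% lower). The call of Prx6c was lost without any one pair of arrays other than 0 min. It was also lost with no filter (adjusted p = 0.187 in limma). MsrA crossed over: it was higher after ethanol than after air up to 90 min and lower from 120 min on. The slope of its difference was called, but the call was lost without any one pair of arrays and after quantile scaling. All genes together also moved from a positive to a negative median difference between the early and late windows. Cat and Sod2 had mean differences below 0.1 log2 units in size with no call in any of the 9 comparisons made. The median difference of the 4 genes was -0.052 log2, beside -0.011 for all genes tested.

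**Figure D1:**
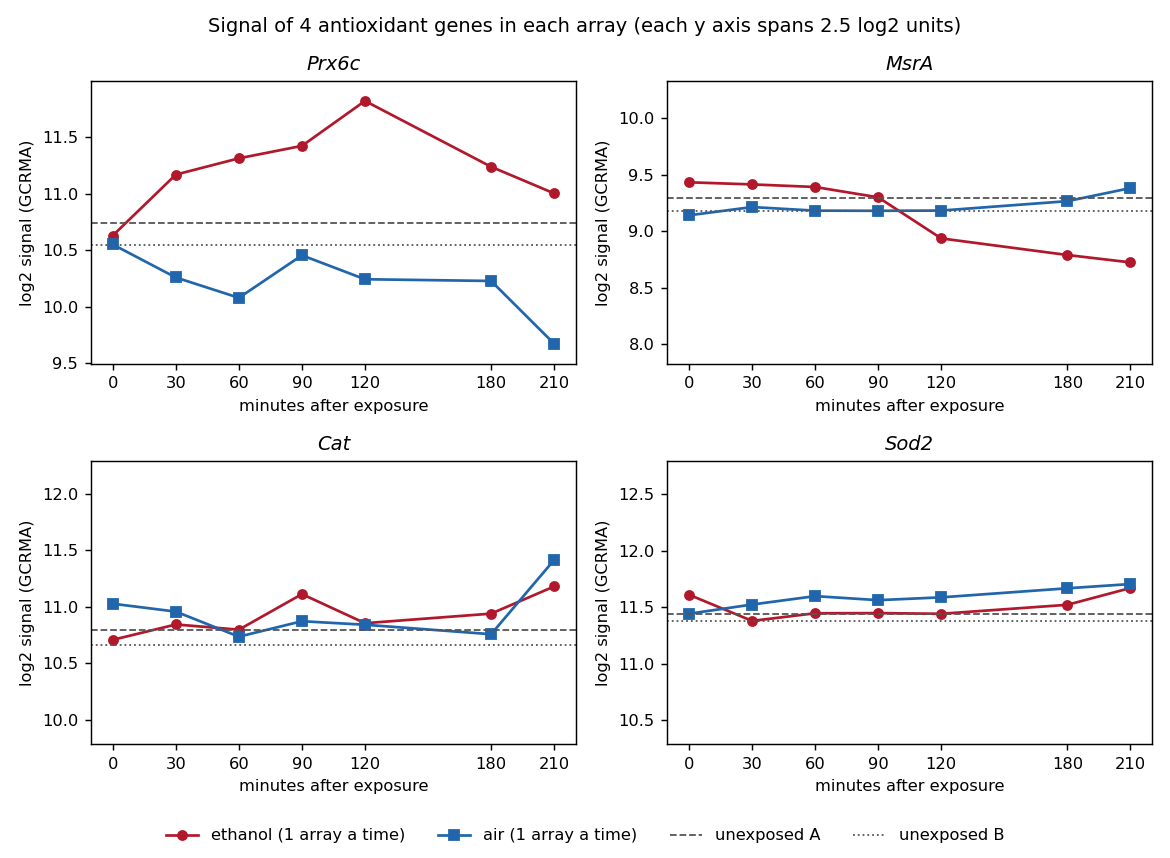
Log2 signal of Prx6c, MsrA, Cat and Sod2 against minutes after exposure, with 1 point per array for ethanol (red circles) and air (blue squares) and lines for the unexposed arrays A (dashed) and B (dotted); each y axis spans 2.5 log2 units. Ethanol and air arrays part in Prx6c, cross between 90 and 120 min in MsrA and stay close in Cat and Sod2.

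Head transcripts were present in all 16 arrays: all 6 photoreceptor marker genes with a probe set (trp, trpl, Arr1, Arr2, rdgB and inaD) reached log2 4 in every array. Body-tissue transcripts were present as well in 4 of them. Transcripts of the male reproductive tract and midgut were not at the same level in all pools. The mean log2 of 15 reproductive tract markers lay between 2.37 and 4.04 in ethanol arrays, between 2.41 and 6.999 in air arrays and between 2.39 and 2.42 in unexposed arrays. The mean of 12 midgut markers lay between 2.52 and 5.07 in ethanol arrays, between 2.52 and 5.89 in air arrays and between 2.503 and 2.508 in unexposed arrays. The high values came from the ethanol array at 120 min and the air arrays at 0, 60 and 120 min. These arrays had 5 (ethanol) and 8 to 12 (air) of the 15 reproductive tract markers at or above log2 4, and the other 12 arrays had 0. The main results are therefore also given without 0, 60 and 120 min. Fat body markers had list means of 9.71 to 10.999 in ethanol arrays, 9.36 to 9.78 in air arrays and 9.56 to 9.58 in unexposed arrays over 6 genes. The 10.999 was the ethanol array at 210 min alone, and the next highest ethanol array had 9.88 (0 min). The list did not move as one: Lsp2, bmm and FASN1 were higher after ethanol on average, apolpp and Mtp were lower, and none was called. In such bulk samples, fewer cells of a type and less RNA per cell cannot be told apart.

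The mitochondrial superoxide dismutase gene Sod2 (probe set 1622984_at; chromosome 2R, 16772785 to 16773915 on Release 6) changed little. Its log2 signal in ethanol arrays was 11.61 at 0 min, 11.38 at 30 min, 11.44 at 60 min, 11.45 at 90 min, 11.44 at 120 min, 11.52 at 180 min and 11.67 at 210 min. In air arrays it was 11.44, 11.52, 11.60, 11.56, 11.59, 11.67 and 11.70 at the same times, and in unexposed arrays 11.44 (A) and 11.38 (B). Ethanol arrays were below the air array of the same time at 6 of 7 times and above it at 0 min, and the ranges of the groups overlapped. The mean difference was -0.081 log2 (95% interval -0.21 to 0.043, adjusted p = 0.611 in limma; exact sign-flip p = 0.141, two-sided and unadjusted), and -0.11 without 0, 60 and 120 min (adjusted p = 0.59). In 6 of 7 ethanol arrays and all 7 air arrays Sod2 stood above both unexposed arrays. Of all genes, 59.6% had a positive mean difference against unexposed after ethanol and 66.0% after air (medians 0.036 and 0.047). After quantile scaling these medians were -0.0052 and -0.0039. The share of all genes with such array counts was not computed. Neither ethanol (0.094, adjusted p = 0.816) nor air (0.18, adjusted p = 0.772) was called for Sod2 against unexposed, where 0.715% and 0% of all genes were called.

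In ethanol arrays the slope of Sod2 with time was 0.033 log2 per hour (adjusted p = 0.707). Within the air arrays, Sod2 had a slope of 0.064 log2 per hour with 5 of 6 steps between consecutive times upward. An exact permutation of the 7 times gave an unadjusted p of 0.00198, but across all genes the slope was not called (adjusted p = 0.47). Of all genes 80.5% had a positive slope in air, with a median of 0.040 per hour, and after quantile scaling of the arrays Sod2 had 0.023 per hour.

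The catalase gene Cat (probe set 1639480_at; chromosome 3L, 18822604 to 18828188) also showed no call. Its log2 signal in ethanol arrays was 10.71 at 0 min, 10.84 at 30 min, 10.80 at 60 min, 11.11 at 90 min, 10.85 at 120 min, 10.94 at 180 min and 11.18 at 210 min. In air arrays it was 11.03, 10.96, 10.74, 10.87, 10.84, 10.76 and 11.41 at the same times, and in unexposed arrays 10.79 and 10.66. The groups overlapped, and ethanol was the higher of the pair at 4 of 7 times. The mean difference was -0.024 log2 (95% interval -0.20 to 0.15, adjusted p = 0.938; exact sign-flip p = 0.766, unadjusted), and 0.018 without 0, 60 and 120 min (adjusted p = 0.967). The single differences ran between -0.32 at 0 min and 0.24 at 90 min, with -0.23 at 210 min. Against unexposed heads Cat stood at 0.19 after ethanol (adjusted p = 0.77) and 0.22 after air (adjusted p = 0.945). Both differences were positive, with 6 of 7 ethanol arrays and 5 of 7 air arrays above both unexposed arrays. As for Sod2, the share of all genes with such array counts was not computed. The mean difference was also positive in 59.6% of all genes after ethanol and in 66.0% after air. The slope of Cat within ethanol arrays was 0.099 per hour (unadjusted p = 0.0456, adjusted p = 0.24 in limma; exact permutation p = 0.0587, unadjusted).

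The peroxiredoxin gene Prx6c (probe set 1633471_at; chromosome 2R, 10418718 to 10419761) gave the main difference. Its log2 signal in ethanol arrays was 10.63 at 0 min, 11.17 at 30 min, 11.31 at 60 min, 11.42 at 90 min, 11.82 at 120 min, 11.24 at 180 min and 11.002 at 210 min. In air arrays it was 10.55, 10.26, 10.08, 10.45, 10.24, 10.23 and 9.67 at the same times, and in unexposed arrays 10.74 and 10.54. The ethanol and air arrays did not overlap, which held for 0.271% of all genes with ethanol the higher. At 0 min the pair lay together, 0.079 apart, and at the 6 later times ethanol was higher by 0.91 to 1.58.

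Over all times Prx6c averaged 11.23 ± 0.37 log2 after ethanol and 10.21 ± 0.28 after air (SD, n = 7 each), a difference of 1.02 (95% interval 0.67 to 1.37, SE 0.15, adjusted p = 0.027 in limma), or 2.02-fold. It was higher after ethanol at 7 of 7 times, as were 2.28% of all genes, and its exact sign-flip p was 0.0156 (two-sided, unadjusted), the smallest that 7 pairs allow. At the 4 times without high reproductive tract and midgut lists (30, 90, 180 and 210 min) the mean difference was 1.05, and at 0, 60 and 120 min it was 0.96. Without 0, 60 and 120 min the call stood (adjusted p = 0.0204). Leaving out the 0 min pair moved the difference to 1.17 (adjusted p = 0.0011), whereas leaving out any one of the other 6 pairs ended the call (differences of 0.92 to 1.03, adjusted p = 0.0583 to 0.0964). The fat body list mean was also higher after ethanol at all 7 times, by 0.13 (90 min) to 1.22 (210 min), and its part in the result was not tested. In that list Lsp2, a storage protein gene, had the largest difference among kept genes (1.41, adjusted p = 0.222), bmm and FASN1 were at 0.40 and 0.22, and apolpp and Mtp were at -0.12 and -0.27. None of these 5 was called.

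By window of recovery, the Prx6c difference was 0.49 over 0 and 30 min (adjusted p = 0.797), 1.10 over 60 and 90 min (adjusted p = 0.139) and 1.31 over 120, 180 and 210 min (SE 0.18, adjusted p = 0.035). The late window called 0.407% of all genes higher, the early window 0.037% and the middle window 0%. The late call ended when the pair at 60, 90, 120, 180 or 210 min was left out (adjusted p = 0.0656 to 0.207), and it stood without 0, 60 and 120 min together (1.17, adjusted p = 0.0323). The 60 and 90 min pairs lie outside the late window. Leaving either out kept the late difference at 1.31 and changed only the fitted spread and the p-values. The increase of the difference with time was not called (0.23 per hour, 95% interval -0.017 to 0.48, adjusted p = 0.341; exact permutation p = 0.119). So a difference between the windows was not shown.

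**Figure D2:**
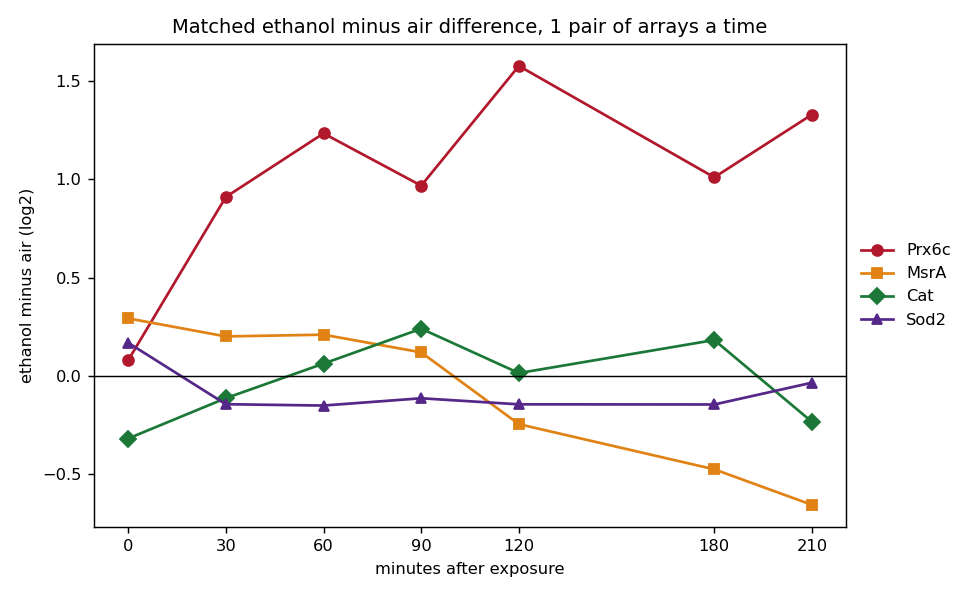
Matched ethanol minus air difference in log2 signal (y axis) against minutes after exposure (x axis) for each of the 4 genes, with 1 pair of arrays at each time. Prx6c lies above 0.9 from 30 min on, MsrA passes from 0.29 at 0 min to -0.66 at 210 min, and Cat and Sod2 stay between -0.32 and 0.24.

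The unexposed arrays placed Prx6c between the exposed groups. In ethanol arrays 6 of 7 values lay above both unexposed arrays, the exception being 0 min. In air arrays 6 of 7 lay below both. How many of all genes had such array counts was not computed. The mean difference against unexposed was positive in 59.6% of all genes after ethanol and in 66.0% after air. The mean was 0.59 log2 above unexposed after ethanol (95% interval 0.083 to 1.09, adjusted p = 0.339) and 0.43 below after air (95% interval -0.93 to 0.074, adjusted p = 0.854). Neither difference was called. In air arrays the slope of Prx6c was -0.16 per hour (adjusted p = 0.47), and the lowest of all 16 values was that of air at 210 min.

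A second probe set, 1631628_s_at, is annotated to Prx6b, CG12896 and Prx6c together, so its signal cannot be given to any 1 of these neighbouring peroxiredoxin genes. In ethanol arrays its log2 signal was 10.09 at 0 min, 10.65 at 30 min, 10.60 at 60 min, 10.65 at 90 min, 10.86 at 120 min, 10.40 at 180 min and 10.43 at 210 min. In air arrays it was 9.87, 9.87, 9.83, 9.83, 9.87, 9.55 and 9.55 at the same times, and in unexposed arrays 9.70 and 9.68. Ethanol and air arrays did not overlap, which held for 0.271% of all genes with ethanol the higher. Ethanol was higher at every time, as in 2.28% of all genes, by 0.22 at 0 min and by 0.78 to 0.99 later. The mean difference was 0.76 log2 (SE 0.088, adjusted p = 0.0119), and it was also called in the late window (0.91, adjusted p = 0.0273). Of all genes, 0.419% were called higher over all times and 0.407% in the late window. The call over all times ended without the 60 min pair (0.76, adjusted p = 0.057) or the 120 min pair (0.72, adjusted p = 0.0599) and stood without any one of the other 5 and without 0, 60 and 120 min together (0.83, adjusted p = 0.0167). The late call ended without the pair at 60, 90, 120, 180 or 210 min (adjusted p = 0.0656 to 0.196) and without 0, 60 and 120 min (adjusted p = 0.0604). Without the 60 or the 90 min pair, both outside the late window, the late difference stayed at 0.91.

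Both probe sets were also set against unexposed heads, and the difference between them was not tested. The shared probe set was called higher after ethanol (0.84, adjusted p = 0.0178), as were 0.481% of all genes. All 7 ethanol arrays lay above both unexposed arrays, a count whose share over all genes was not computed. After air the shared probe set stood at 0.079 (adjusted p = 0.9997). The call after ethanol ended without unexposed A (0.85, adjusted p = 0.162), without unexposed B (0.83, adjusted p = 0.335) or without the 4 arrays with high body-tissue lists (0.78, adjusted p = 0.0712), and stood without any one ethanol array. The air arrays of the Prx6c probe set lay 0.091 to 0.97 below the unexposed mean, whereas those of the shared probe set lay 0.14 to 0.19 above it up to 120 min and 0.14 below it at 180 and 210 min. How much of the shared signal comes from each gene was not measured. The other named gene of this subfamily, Prx6a, had 7.38 after ethanol and 7.40 after air (a difference of -0.025, adjusted p = 0.905).

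**Figure D3:**
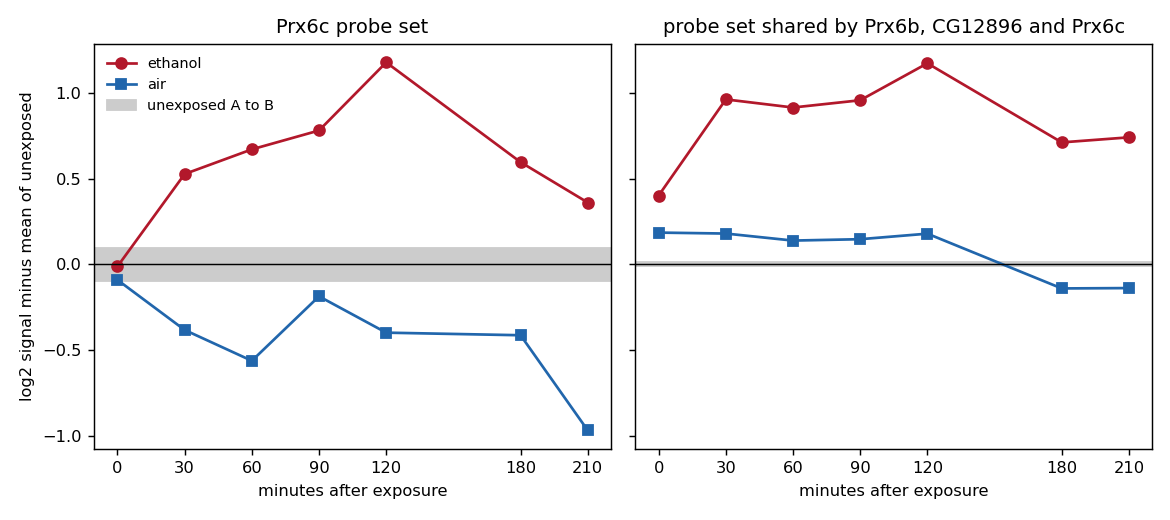
Log2 signal minus the mean of the 2 unexposed arrays (y axis) against minutes after exposure (x axis) for the Prx6c probe set (left) and the probe set shared by Prx6b, CG12896 and Prx6c (right); the grey band spans unexposed A and B. Ethanol arrays (red) lie above air arrays (blue) in both, and air arrays lie below the unexposed mean at all times only on the left.

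The methionine sulfoxide reductase gene MsrA (probe set 1625276_a_at; chromosome 3L, 15511052 to 15513202) had its lowest ethanol values at the late times. Its log2 signal in ethanol arrays was 9.43 at 0 min, 9.41 at 30 min, 9.39 at 60 min, 9.30 at 90 min, 8.94 at 120 min, 8.79 at 180 min and 8.73 at 210 min. In air arrays it was 9.14, 9.21, 9.18, 9.18, 9.18, 9.27 and 9.38 at the same times, and in unexposed arrays 9.30 and 9.18. The ethanol level was lower at each later time, which held for 0.21% of all genes. The first 4 ethanol arrays stood above both unexposed arrays and the last 3 below both, a pattern whose share over all genes was not computed. The step of 0.36 between 90 and 120 min was the largest.

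Averaged over all times, MsrA showed no call, with 9.14 ± 0.31 log2 after ethanol and 9.22 ± 0.080 after air (SD, n = 7 each), a difference of -0.080 (adjusted p = 0.856). Without 0, 60 and 120 min the difference was -0.20 (adjusted p = 0.677). The difference averaged 0.21 over 0 to 90 min and -0.46 over 120 to 210 min. A positive sign at the 4 early times with a negative one at the 3 late times was found in 3.06% of all genes. The slope of the difference was -0.29 log2 per hour (95% interval -0.38 to -0.19, SE 0.043, adjusted p = 0.0402 in limma), where 0.678% of all genes had a called slope (0.604% falling and 0.074% rising). An exact permutation of the 7 times gave an unadjusted p of 0.000397 (two-sided, 5040 orders).

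The call of the MsrA slope was lost without any one of the 7 pairs (adjusted p = 0.0712 to 0.159), while the slope itself stayed between -0.31 and -0.27. It was -0.30 without the 0, 60 and 120 min pairs (adjusted p = 0.444 with 4 times) and -0.22 after quantile scaling (adjusted p = 0.12), where the median slope of all genes is -0.00054 instead of -0.051. The late window had -0.46 (95% interval -0.69 to -0.23, adjusted p = 0.109) and the early window 0.25 (adjusted p = 0.829), and neither was called. Over all genes the median difference was -0.067 in the late window, with 30.9% of genes positive. In the early window it was 0.068, with 69.9% positive. Without 0, 60 and 120 min the late value was -0.57 (adjusted p = 0.217) and the early one 0.20 (adjusted p = 0.99997).

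Most of the slope lay in the ethanol arrays. In that exposure alone the MsrA slope was -0.23 per hour and was called (adjusted p = 0.0257), as were 3.23% of all genes (1.76% falling and 1.47% rising), and the exact permutation p was 0.000198, the smallest that 5040 orders allow. This call was lost without the 0, 30, 60, 180 or 210 min array (adjusted p = 0.0518 to 0.117) and without 0, 60 and 120 min together (-0.25, adjusted p = 0.219). In air arrays the slope was 0.052 per hour (adjusted p = 0.539; exact permutation p = 0.00893, unadjusted), and 0.0079 per hour after quantile scaling. In no other member was a slope called in either exposure.

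The responses of the 4 genes were also compared with each other over the 7 matched differences. The difference of Prx6c exceeded that of Cat at 7 of 7 times, by 1.04 on average (exact sign-flip p = 0.0156), and those of MsrA and Sod2 at 6 of 7 times, by 1.10 each (exact p = 0.0313 each). At 0 min MsrA and Sod2 had the larger difference. Over the 6 pairs of genes compared, none passed after Benjamini-Hochberg adjustment (lowest adjusted p = 0.0625). Across the 16 arrays Pearson's r between the genes ran from -0.58 (Prx6c and Sod2) to 0.38 (Cat and Sod2). These values are a description, since the arrays share their exposures and times.

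Genes with the most similar pattern over the 16 arrays were sought among all kept genes with 1 symbol. For Prx6c these were CG15120 (Pearson's r 0.87), Tsp42Ek (0.86), a tetraspanin gene, and Men (0.85), the malic enzyme gene. Tsp42Ek and Men were called higher after ethanol (0.54, adjusted p = 0.0208, and 0.84, adjusted p = 0.0272). Both were picked for likeness to Prx6c over these same arrays, so these calls are not separate evidence. The call of Tsp42Ek ended without the pair at 30, 60, 120 or 210 min (adjusted p = 0.0647 to 0.0964) and without 0, 60 and 120 min together (adjusted p = 0.293). For MsrA they were CG8788 (0.95), CG13086 (0.90) and CG14400 (0.89). For Cat they were SerRS (0.86), CG43867 (0.84) and CG5273 (0.82), and for Sod2 ND-B14.5B (0.88), a subunit of respiratory complex I, mRpL24 (0.88), a mitochondrial ribosomal protein gene, and CG6418 (0.87). No gene was among the nearest 3 of more than 1 member.

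Around the 4 members, 10 lists of antioxidant pathway genes held 58 entries, of which 46 had a probe set of their own and 34 passed the filter. Of these 34, 2 rose after ethanol (Prx6c and Men), 0 fell and 32 were not called, where 0.691% of all genes were called. Their differences included 15 positive ones and had a median of -0.020. Besides the 4 members, 1 of 30 was called, and 6 of 30 had unadjusted p under 0.05, where the share over all genes was 12.1%. Men makes NADPH, the reductant that thioredoxin and glutathione systems draw on. It stood at 12.93 ± 0.41 log2 after ethanol, 12.09 ± 0.098 after air (SD, n = 7 each) and 12.07 in unexposed heads, and was higher after ethanol at 7 of 7 times. The call of Men ended without any one pair other than 0 min (differences of 0.77 to 0.87, adjusted p = 0.0629 to 0.103) and without 0, 60 and 120 min together (0.896, adjusted p = 0.0746). Idh, the other kept gene of NADPH supply, had -0.12 (adjusted p = 0.388).

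Among enzymes that act on superoxide and peroxide, the extracellular superoxide dismutase gene Sod3 had -0.14 (adjusted p = 0.412). Irc, an immune-regulated catalase gene, had 0.25 (SE 0.05, adjusted p = 0.075) and was higher after ethanol at 7 of 7 times without passing. The mitochondrial peroxiredoxin gene Prx3 had -0.017, and Srx, the sulfiredoxin gene whose enzyme reactivates oxidized peroxiredoxins, -0.14 (adjusted p = 0.586). Trxr1, the thioredoxin reductase gene, had 0.16 (adjusted p = 0.35), the largest size among 3 kept thioredoxin genes. SelR, which reduces the other stereoisomer of methionine sulfoxide from MsrA, had 0.014 with a slope of 0.0024 per hour (adjusted p = 0.979), against the slope of -0.29 in MsrA. Prx2, Prx4, Prx5, Zw, Pgd, Gss1, Gss2, park and MtnE are not analysed here.

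In glutathione synthesis, Gclm, the modifier subunit of glutamate-cysteine ligase, had 0.17 (adjusted p = 0.607) and Gclc, its catalytic subunit, 0.15 (adjusted p = 0.654). The regulators included 0 called genes of 8: cnc, the fly counterpart of mammalian Nrf2, had 0.0010 and its inhibitor Keap1 0.010, while foxo had -0.27 (adjusted p = 0.483), the largest size of the list. Duox, an enzyme gene that produces peroxide, had -0.23 (adjusted p = 0.603). Among 6 kept metal-binding genes 0 were called. MtnC, a metallothionein gene, had the largest difference (-0.64, adjusted p = 0.388), but its signal was low. Its means were 2.84 ± 0.36 log2 after ethanol, 3.48 ± 1.03 after air (SD) and 2.68 in unexposed heads. All lie under the filter value of log2 4, which MtnC passed only through air arrays. Its difference was -1.53 over 0, 60 and 120 min, the times of the air arrays with body-tissue transcripts, and 0.017 over the other 4 times. With 1 slope called among the 34 genes, that of MsrA, the median slope was -0.036 per hour, beside -0.051 for all genes.

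**Figure D4:**
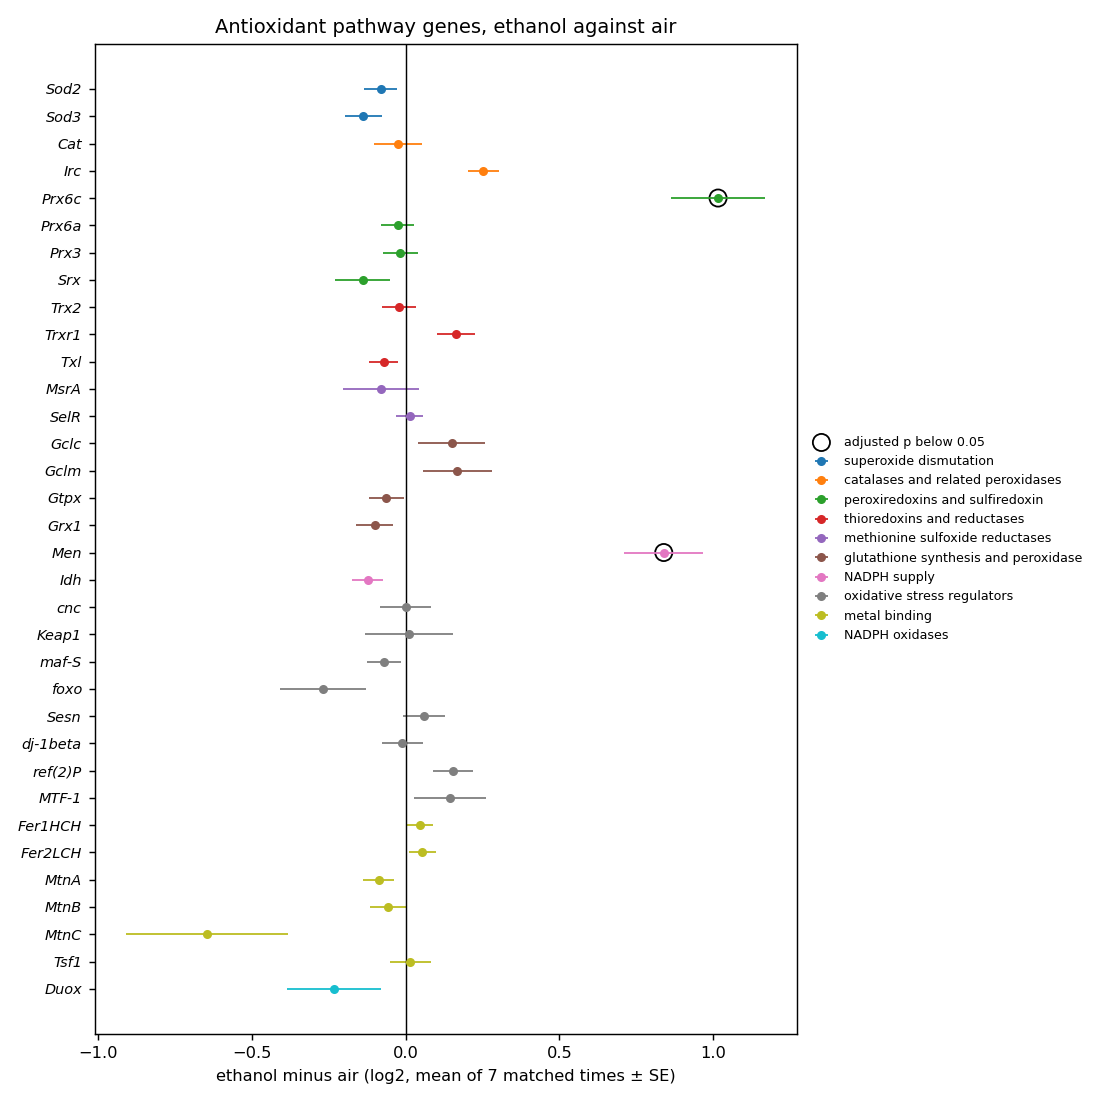
Mean ethanol minus air difference in log2 signal over 7 matched times (x axis, bars are SE) for the 34 kept genes of the antioxidant pathway lists (rows, coloured by list); open circles mark adjusted p below 0.05. Prx6c and Men stand at 1.02 and 0.84, and the other 32 lie between -0.64 and 0.25.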

How the data were processed

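Log2 expression values of 16 Affymetrix Drosophila 2.0 arrays were used as the authors deposited them. Per the submitters' processing notes they were made with GCRMA, whose version is not given in the sources used here. It subtracts sequence-dependent background and equalizes the distributions of probe values between arrays, so a change in total RNA cannot be seen. The deposited probe set values still differed between arrays, with medians between 2.88 and 3.03. Further quantile scaling moved the median slope of the ethanol minus air difference over all genes from -0.051 to -0.00054. The number of arrays limits the precision.

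Of 18952 probe sets, 183 controls were left out. Probe sets were tied to genes by Entrez ID in the platform annotation, with current symbols from RefSeq (13647 probe sets with 1 symbol, 402 with several, 4720 with none), and positions are from Release 6. Differences were tested with limma 3.58.1 (R 4.3.3) over all 8110 kept genes, with Benjamini-Hochberg adjustment and calls at adjusted p < 0.05: ethanol against air with time as a factor, slopes per hour, 3 windows, and a 3-group model against unexposed. The models were also run on simulated data with independent noise and no array-wide shift, so that run cannot speak to such shifts. Exact sign-flip and permutation tests over the 7 times were two-sided. Alternatives were another or no filter, quantile or median scaling, all probe sets, other limma variances, array weights, other terms for time, a body-tissue covariate, and leaving out times or arrays.

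Named genes were the members, called or else largest-difference genes of each list, and the 3 nearest patterns of each member; further list genes were named after their values were seen. Members and lists were chosen with earlier results of these data known. Of list entries, Prx6 matched no gene.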

Additional observations from a re-analysis of the deposited data

Results flagged for a closer look

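Of 12 groups of 7 values tested, 2 held a value far from the others, where chance flags about 1 in 20. In air arrays Cat stood at 11.41 at 210 min, 0.39 above the next highest air array (11.03 at 0 min). The ethanol minus air difference of Sod2 was 0.17 at 0 min, whereas the other 6 times lay between -0.15 and -0.035. The slope of the MsrA difference, -0.29 log2 per hour, was picked out because it passed its test in the reported fit. MsrA was higher after ethanol at 0 to 90 min and lower at 120 to 210 min, signs found in 3.06% of all genes. The call of the slope was lost without any one pair of arrays and after quantile scaling. Neither the early nor the late window was called for MsrA.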

How the results depend on the processing

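Of 540 values of single members under an alternative, 482 kept their direction and side of the threshold, 34 lost a call, 24 turned sign and 0 gained a call; the values that turned sign were never called. For ethanol against air, Prx6c kept 1.02 but lost its call with no filter (adjusted p = 0.187), which left 0 members called and 0 genes in all, and with 1 time left out the members called were 0 or 1 (Prx6c 0.92 to 1.17). Cat turned to 0.040 with a body-tissue covariate and to 0.018 without 0, 60 and 120 min; with 1 time left out Cat ran from -0.068 to 0.025 and MsrA from -0.14 to 0.016. The count of all genes called was 56, and between 0 (no filter) and 150 (array weights) otherwise (8 to 104 with 1 time left out). For the slope with time, MsrA lost its call at -0.29 with no filter, with median scaling and with trend and robust variances, at -0.22 with quantile scaling, and at -0.30 with a body-tissue covariate or without 0, 60 and 120 min, leaving 0 members called, as did leaving out any 1 time (-0.31 to -0.27). The cause was not tested, beyond the fewer times fitted where times were left out. Of all genes, 55 had a called slope, against 18 with quantile scaling, 10 with median scaling, 9 with no filter, 0 with trend and robust variances or a body-tissue covariate, and 0 to 69 with 1 time left out; 6 rose and 49 fell, against 5 and 13 with quantile scaling. The slope of Sod2 turned to 0.017 with quantile scaling, 0.0074 with the covariate and 0.023 without 0, 60 and 120 min, and that of Cat to -0.0084 and -0.022 under the last 2. With 1 time left out Cat ran from -0.025 to 0.15 and Sod2 from -0.071 to 0.025.

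In the early window Sod2 turned to -0.063 with quantile scaling and -0.14 without 0, 60 and 120 min (-0.14 to 0.17 with 1 time left out). In the late window 0 members were called with no filter or with trend and robust variances (0 or 1 with 1 time left out), and Cat turned to 0.062 with quantile and 0.010 with median scaling (-0.11 to 0.098 with 1 time left out). Windows reduced to 1 pair were assumed to vary like the others. MsrA in air against unexposed turned to 0.023 without the arrays that hold body-tissue transcripts and ran from -0.075 to 0.043 with 1 array left out. Within ethanol arrays, the slope of MsrA lost its call and 0 members were called with no filter or without 0, 60 and 120 min (0 or 1 with 1 array left out); that of Prx6c turned to -0.057 without 0, 60 and 120 min (-0.055 to 0.22 with 1 array left out), and that of Sod2 ran from -0.0070 to 0.079. The slope of Cat in air ran from -0.076 to 0.11 with 1 array left out. Counts of all genes called ran, over all alternatives, from 0 to 90 in the late window (77 in the reported fit), 0 to 16 in the early one (3), 0 to 17 in the middle one (0), 0 to 142 for ethanol against unexposed (58; 0 without unexposed B and 1 without unexposed A), 0 to 10 for air against unexposed (0) and 0 to 408 for slopes in ethanol (262). Against unexposed, 39 were higher and 19 lower, beside 21 and 22 with quantile and 22 and 19 with median scaling; of slopes in ethanol 119 rose and 143 fell, beside 116 and 84 with median scaling. Arrays of 1 time per exposure are the limit on all these values.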
